A study of Drosophila melanogaster with 2 samples.

Results

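In embryos expressing a Ptx1-eGFP fusion protein, 956 of the 6840 peaks in the conservative peak list had their summit in an intron of a protein-coding gene at 1 to 5 kb from the nearest transcription start. They were taken by position alone from the autosomal arms 2L, 2R, 3L and 3R, which held 5402 of the peaks. The summit lay inside a protein-coding gene, in no annotated exon, and more than 1000 and at most 5000 bp from the nearest start of any gene, with pseudogenes and transposable elements left out. The peaks came from chromatin immunoprecipitation and sequencing (ChIP-seq) of whole Drosophila melanogaster embryos 0 to 24 h old. The strain, Ptx1-GFP, carries an insertion labelled as targeting Ptx1. Its chromatin was sonicated to 200 to 800 bp and precipitated through GFP, while the antibody field of the labels names Ptx1. The 2 biological replicates carry the same donor entry and form 1 group, so there is no contrast between conditions, and no control sample was analysed here. A whole embryo mixes all cell types and ages of that window, so a peak cannot be assigned to a tissue.

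Ptx1 is the fly relative of the vertebrate Pitx factors and belongs to the bicoid class of homeodomain proteins. A lysine in the recognition helix of these proteins favours the letters TAATCC, and Ptx1 is known from the midgut, the Malpighian tubules and a subset of body wall muscles of the embryo. Introns of developmental genes, above all long first introns, often hold enhancers, and they also hold the start sites of shorter transcripts of the same gene.

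The windows under the strongest of these peaks were short, AT-rich stretches of intron, and few held the bicoid-type letters. The first set shows the summit, the base of highest signal, with 50 bp on either side, for the 8 members of highest score on the arms 2L, 3L and 3R. The sequences are RefSeq's Release 6 genome read on the plus strand, in dm6 coordinates, and capitals mark TAATCC or TAATTA on either strand (TAATCC reads GGATTA on the other).
CG11050 (chr2L:6612661-6612761): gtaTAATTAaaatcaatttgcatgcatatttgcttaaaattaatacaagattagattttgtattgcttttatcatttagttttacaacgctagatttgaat
Trl (chr3L:14759444-14759544): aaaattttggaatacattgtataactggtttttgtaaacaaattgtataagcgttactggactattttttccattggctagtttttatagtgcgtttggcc
CG9837 (chr3R:8811642-8811742): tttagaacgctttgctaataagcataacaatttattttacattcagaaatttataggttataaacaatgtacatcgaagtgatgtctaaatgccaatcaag
for (chr2L:3655773-3655873): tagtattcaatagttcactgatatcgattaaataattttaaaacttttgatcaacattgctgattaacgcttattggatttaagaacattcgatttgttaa
CG32264 (chr3L:3785167-3785267): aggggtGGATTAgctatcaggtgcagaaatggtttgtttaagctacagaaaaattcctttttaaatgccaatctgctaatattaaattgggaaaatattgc
ImpL2 (chr3L:4228343-4228443): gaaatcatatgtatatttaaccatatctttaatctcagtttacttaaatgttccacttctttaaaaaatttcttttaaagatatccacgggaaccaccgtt
CG9328 (chr2L:20806034-20806134): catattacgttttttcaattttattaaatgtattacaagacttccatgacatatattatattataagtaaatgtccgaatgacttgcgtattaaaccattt
Csk (chr3R:11649607-11649707): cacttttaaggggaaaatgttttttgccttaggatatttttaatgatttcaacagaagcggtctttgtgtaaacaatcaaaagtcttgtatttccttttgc
Of these 8 windows, CG32264's held TAATCC and CG11050's held TAATTA, the core preferred by Antennapedia-type homeodomains. The second set adds the next members by score on the same 3 arms that held TAATCC, in introns of aos, msn and Nak.
aos (chr3L:16480505-16480605): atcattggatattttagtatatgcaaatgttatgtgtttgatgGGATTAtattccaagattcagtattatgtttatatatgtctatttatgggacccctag
msn (chr3L:2584189-2584289): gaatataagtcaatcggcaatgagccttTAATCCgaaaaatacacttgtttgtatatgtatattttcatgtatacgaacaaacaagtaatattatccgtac
Nak (chr2L:18966971-18967071): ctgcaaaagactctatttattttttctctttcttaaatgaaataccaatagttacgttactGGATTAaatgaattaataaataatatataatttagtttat
The last window is the single member with TATCGATA, the element of the DNA replication-related factor found in many housekeeping promoters, marked in capitals in an intron of sty.
sty (chr3L:3420903-3421003): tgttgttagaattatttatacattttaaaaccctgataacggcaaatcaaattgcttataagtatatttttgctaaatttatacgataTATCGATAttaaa

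Peaks carry the authors' strength score, which has no stated unit, and a scaled irreproducible discovery rate (IDR), which is at least 830 in the conservative list and is capped at 1000. The score of the 956 members had a median of 122 (84.4 to 199.8 between the quartiles), against 128 over all 6840 peaks and 149.9 for the 2827 peaks within 1 kb of a start. Among the top 25% of all scores stood 188 members, or 19.7% of the members (exact 95% interval 17.2 to 22.3), against 25% of all peaks as the cut fixes it and 32.3% of the peaks within 1 kb. Intronic peaks over 5 kb from starts reached 15.1% (12.5 to 17.9) and intergenic peaks at 1 to 5 kb 17.7% (14.5 to 21.3). The members thus lay below the promoter-proximal peaks, and their interval overlapped those of both the far intronic and the intergenic class. Before the conservative threshold, 11092 peaks of the ranked replicate-pair list met the same position rule, and 956 of them (8.62%, 8.1 to 9.16) stood in the conservative list, against 7.49% of the whole ranked list.

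Not all members are separate sites. In 107 members (11.2%) the peak overlapped another conservative peak, and in 49 (5.13%) the other peak was the stronger, against 5.94% of all peaks on the 4 arms. Those 49 had a median score of 9.51 and lay a median of 203 bp from the nearest summit, and they included 35 of the 36 members with a score under 30. The strength scores below 30 therefore belonged almost wholly to second entries beside a stronger summit, and without the 49 entries the remaining 907 members had a median score of 126.

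The highest member lay in CG11050 on 2L, with a score of 1561 in replicate 1 and 1264 in replicate 2 and a combined score of 2806, the fifth highest rank among all 6840 peaks. Its summit was 1024 bp downstream of a start of its host, in an intron of 140 bp, and 70 bp from the nearest exon. The second lay in Trl, the gene of GAGA factor, with 976 in replicate 1 and 819.6 in replicate 2, 1532 bp upstream of a start of a shorter Trl transcript and inside the second intron of a longer one. CG12769 had 865 and 617, CG9837 had 566 and 515, and for, which encodes a cGMP-dependent protein kinase, had 518 and 432 in replicates 1 and 2.

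Next in score after these came CG32264 with 493 in replicate 1 and 395 in replicate 2, and then ImpL2. ImpL2, a secreted insulin-binding protein, had 460.2 in replicate 1 and 417 in replicate 2, 1091 bp upstream of one of its starts. Csk, the kinase that inhibits Src, had 447 and 336 at 1049 bp downstream. The summit in aos, whose secreted product blocks the EGF receptor, had 439 and 335 at 3095 bp downstream in its first intron. These 3 summits had combined scores of 873, 793 and 772. The Tec-family tyrosine kinase gene Btk had 395 in replicate 1 and 342 in replicate 2, and Mekk1, which encodes a kinase at the head of stress MAP kinase cascades, had 395 and 308. The gene wit, a type II BMP receptor, had 369 and 252, and S, or Star, which moves EGF receptor ligands through the secretory pathway, had 358 and 236.

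The remaining hosts of the 20 highest members were CG32264, CG9328, CG13894, Baldspot (a fatty acid elongase), sr (the tendon cell factor Stripe), edl (a regulator of the ETS protein Pointed), mam (the Notch coactivator Mastermind) and mol (a maturation factor of dual oxidase), with combined scores of 641 to 878. In all 20, each replicate's own thresholded list held an overlapping peak, and replicate 1 had the higher score in 19, mol being the exception with 313 in replicate 1 and 319 in replicate 2. The first intron of at least 1 transcript held 17 of the 20 summits.

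Across all members, 529 (55.3%, 52.1 to 58.5) overlapped a thresholded peak of both replicates, against 59.5% of all conservative peaks and 66.1% of those within 1 kb. The list of replicate 1 held such a peak for 71.2% of members and that of replicate 2 for 64.4%, members found in both being counted in each. For 19.7% neither list held one, against 18.2% of all peaks. Support followed score. With the members cut by score into 4 sets of 239, 99.6% of the highest set were found in both lists, 83.3% of the next, 28.9% of the third and 9.62% of the lowest. Score and replicate calls come from the same reads, and the members of lower score rest mainly on the joint analysis of the replicates. For the 941 members with a ranked peak in each replicate, the Pearson correlation of log10 scores was 0.893 and Spearman's rho 0.834, as a description. The IDR selects peaks for agreement of rank, so a high value is built in. The ratio of replicate 1 to replicate 2 had a median of 1.23 (0.764 to 1.93 between the 5th and 95th percentiles), and replicate 1 was higher at 79.7% of these members.

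**Figure D1:**
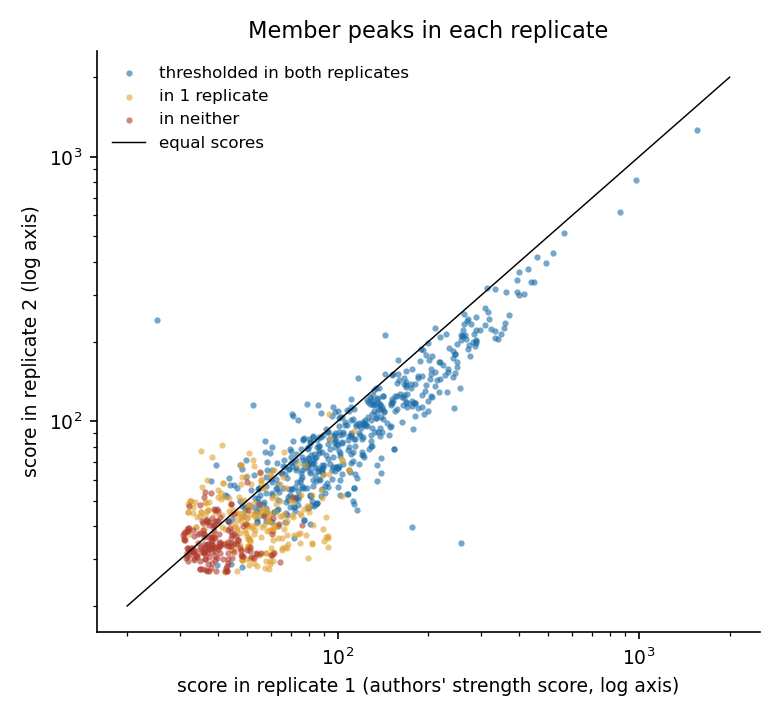
Strength score of each member in replicate 1 (horizontal) and replicate 2 (vertical), both on log axes, for the 941 members with a ranked peak in each, coloured by presence in the replicates' thresholded lists, with a line of equal scores. Most points lie below the line, with a median ratio of replicate 1 to replicate 2 of 1.23, and members in neither list gather at the low end of both axes.

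Intron sequence that satisfied the position rule came to 14.8 Mb, which the members filled at 64.6 summits per Mb (exact Poisson 95% interval 60.5 to 68.8). Intergenic sequence at the same distance held 48.4 per Mb (44.3 to 52.8), introns over 5 kb from starts 33.8 (31.3 to 36.4), sequence within 1 kb of starts 109 (105 to 113) and the 4 arms together 49.6. The arms 2L, 2R, 3L and 3R held 58.9, 65.4, 71.2 and 62.4 members per Mb of their own eligible introns, with overlapping intervals. Density was highest next to the lower limit, at 84.1 per Mb (73.8 to 95.4) for 1 to 1.5 kb and 71.2 for 1.5 to 2 kb, and lay between 53.1 and 61.7 in each 500 bp bin from 2 to 5 kb. Score had almost no relation to distance among the members (Spearman's rho -0.0397 over 956 members, as a description).

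The fall of density with distance was seen in first introns. A first intron of at least 1 transcript held 679 members (71%, 68 to 73.9), while first introns made up 54.1% of the eligible sequence, a density of 84.7 per Mb in first introns against 40.8 in later ones. By distance, first introns had 102 members per Mb at 1 to 2 kb (91.6 to 114), 76.6 at 2 to 3 kb, 69.7 at 3 to 4 kb and 69.8 at 4 to 5 kb (55.3 to 86.9). Later introns had 40.5, 36.3, 40.5 and 47.6 per Mb over the same distances, so their intervals overlapped throughout, and first introns were denser in each of the 4 distance ranges, with intervals that overlapped only in the last. Under the stricter definition, first intron of every transcript of the host across the summit, the share was 46.3% of members and 35.5% of the sequence. Among intronic peaks over 5 kb from starts, 50.4% lay in first introns, which made up 29.9% of that sequence.

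**Figure D2:**
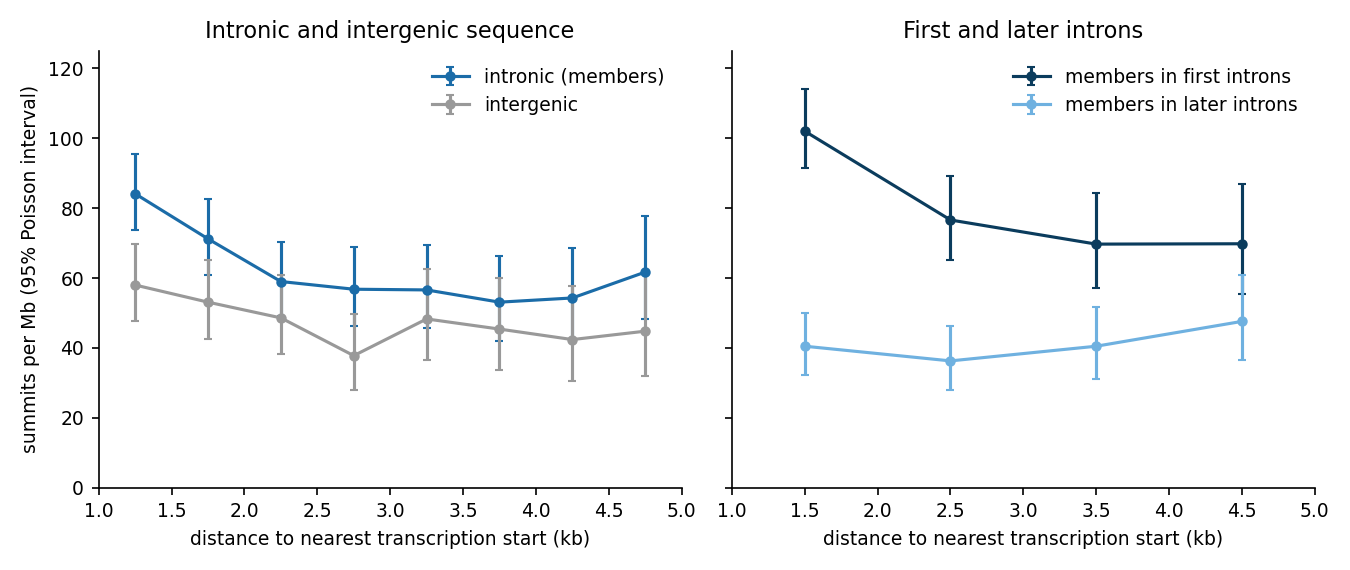
Summits per Mb of sequence against distance to the nearest transcription start (kb), with exact Poisson 95% intervals: intronic members beside intergenic peaks in 500 bp bins (left), and members in first and later introns in 1 kb bins (right). First introns go down with distance, with 102 per Mb in the nearest bin and 69.8 per Mb in the farthest, and later introns stay between 36.3 and 47.6.

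The nearest start belonged to the host gene for 711 members (74.4%, 71.5 to 77.1), while such positions made up 63.1% of the eligible sequence. In 114 members (11.9%) the nearest start was of a noncoding gene only. Relative to the nearest start of the host, 76.2% of summits lay downstream and 23.8% upstream, the second kind being inside the intron of a longer transcript ahead of an internal start. For 60.3% of members the host had a conservative summit within 1000 bp of one of its starts. The same share over all eligible genes, or over genes of like length, was not computed, so no link can be read from it. Another conservative summit lay within 5000 bp of 74.1% of members, against 62.6% of all peaks on the 4 arms. The position rule keeps members near starts, and overlapping members are counted in this share. It was not computed for intergenic peaks at 1 to 5 kb. Their median distance to the nearest summit was 2800 bp, against 2176 bp for members. The intron around the summit had a median length of 8232 bp, and 3.35% of summits lay within 100 bp of an exon. Neither value was computed for the eligible sequence at large. At the lower limit, the members of Svil and magu lay 1005 bp from a start, with scores of 272 and 109.7, and the peaks of CG10936 and Dif at 1000 bp, with 105 and 98, fell outside. At the upper limit, cv-c and Liprin-gamma lay at 4989 bp with 207 and 113, and CG14669 and shep at 5004 and 5009 bp with 83.9 and 172 fell outside.

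Summit windows were poor in G and C. The summit with 50 bp on either side had a median GC content of 30.7% (26.7 to 37.6 between the quartiles), against 41.6% in windows 500 bp to either side and 40.6% in 134884 windows tiled over all eligible introns. The window was lower than both flanks in 647 members (67.7%) and higher than both in 113 (11.8%). The dip was narrow. In shorter windows of 25 bp, the mean was 31.8% at the summit and 40.1% at 1000 bp to the left. At 200 bp it was 44.8% to the left and 44.5% to the right. Intronic peaks over 5 kb away and intergenic peaks had the same median of 30.7%, and peaks within 1 kb of starts had 31.7%, so a low GC content at the summit was shared by these classes. Higher scores went with lower GC content among members (Spearman's rho -0.345, n = 956, as a description), with a median of 28.7% in the highest 239 members by score and 35.6% in the lowest 239. These values include the 49 members that overlapped a stronger peak, whose median score was 9.51 and median GC content 43.6%. The relation was not computed without them. How far base composition itself affects sequencing or peak calling was not tested.

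**Figure D3:**
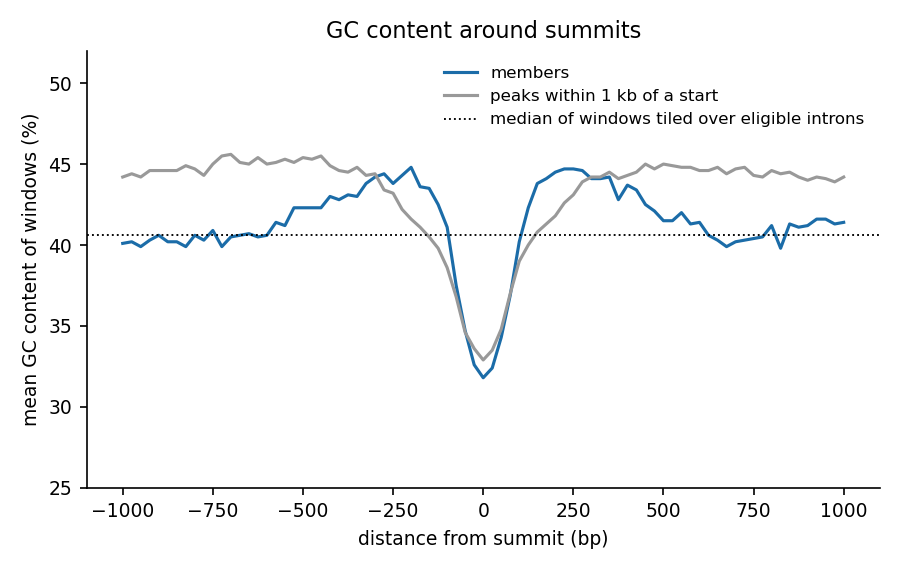
Mean GC content (%) of windows of 25 bp, at 25 bp steps up to 1000 bp on either side of the summit. Curves are for the 956 members and for the 2827 peaks within 1 kb of a start. A dotted line marks the median of windows tiled over eligible introns, each as long as a summit with 50 bp on either side. Both curves dip at the summit, to 31.8% for members and 32.9% for the peaks near starts, and the members' curve passes above the dotted line at 200 to 400 bp on either side.

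The bicoid-type letters seen above in CG32264, aos, msn and Nak were rare. TAATCC, searched on both strands, was in 27 of the 956 windows (2.82%, 1.87 to 4.08), against 2.46% of flank windows, 3.43% of all tiled intron windows and 4.39% of windows of peaks within 1 kb of starts. The weaker bicoid-type core TAAGCC was in 4.29% of member windows, 3.97% of flanks and 4.7% of tiled windows. The reversed letters CCTAAT, a string of equal composition with no known role here, were in 5.33% of member windows (4 to 6.95) and 3.4% of flanks. Tiled windows held them in 3.73%, below the members' interval. Neither bicoid-type core was more frequent under member summits than in intron windows at large, beyond the counting intervals. A match is a string of letters and not a bound site, and its absence from so short a window says nothing of the factor.

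Some AT-rich strings were more frequent at summits than around them. TAATTA was in 11.8% of member windows, 6.85% of flanks and 8.33% of tiled windows, TGATAA (the GATA factor core) in 10.9%, 7.43% and 7.31%, and AAAAAAAA in 9.94%, 5.86% and 6.42%. These windows were also poorer in G and C, and the comparison was repeated, after the data were seen, in the 467 members and 34061 tiled windows with a GC content of 25 to 35%. There TAATTA was in 11.6% of members and 12.2% of tiled windows, AAAAAAAA in 10.5% and 10.2%, TGATAA in 11.8% and 10.4%, and TAATCC in 3.64% and 4.02%, each tiled value inside the members' interval. For these strings, members and introns of like composition thus differed by less than the counting intervals. Among all 17 motifs searched, TTTATNG (caudal or Abd-B type) was the exception in this range, in 12.4% of members (9.57 to 15.8) and 16% of tiled windows.

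Strings rich in G, C or repeats were less frequent at summits. GAGAG, bound by GAGA factor, was in 8.37% of member windows, 13.8% of flanks and 11% of tiled windows, and CACACACA in 1.57%, 3.66% and 2.59%. GTGGGAA, the core of Suppressor of Hairless, was in 5 members (0.523%) against 1.88% of flanks, and the E-box CACGTG in 3 (0.314%) against 1.05%. At a GC content of 25 to 35% GAGAG was in 7.28% of members and 6.74% of tiled windows. The housekeeping strings TATCGATA and GGTCACAC were in 1 member (0.105%), the sty window printed above, and in 0 members (0 to 0.385%), against 2.3% and 1.2% of windows of peaks within 1 kb of starts, whose intervals lay above those of the members. Of the 17 motifs searched on both strands, the other 5 were TTTATNG in 12.6% of member windows and 12.1% of tiled ones at any GC content, CATATG in 4.5% and 3.28%, CAGCTG in 2.51% and 3.82%, CAGGTAG (the Zelda element) in 0.628% and 0.462%, and AACCGGTT (Grainy head) in 0.209% and 0.159%. Motifs were counted independently, so a window such as that of CG11050 may hold several, and TAATTA can share 3 letters with TGATAA and 2 with TAATCC.

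**Figure D4:**
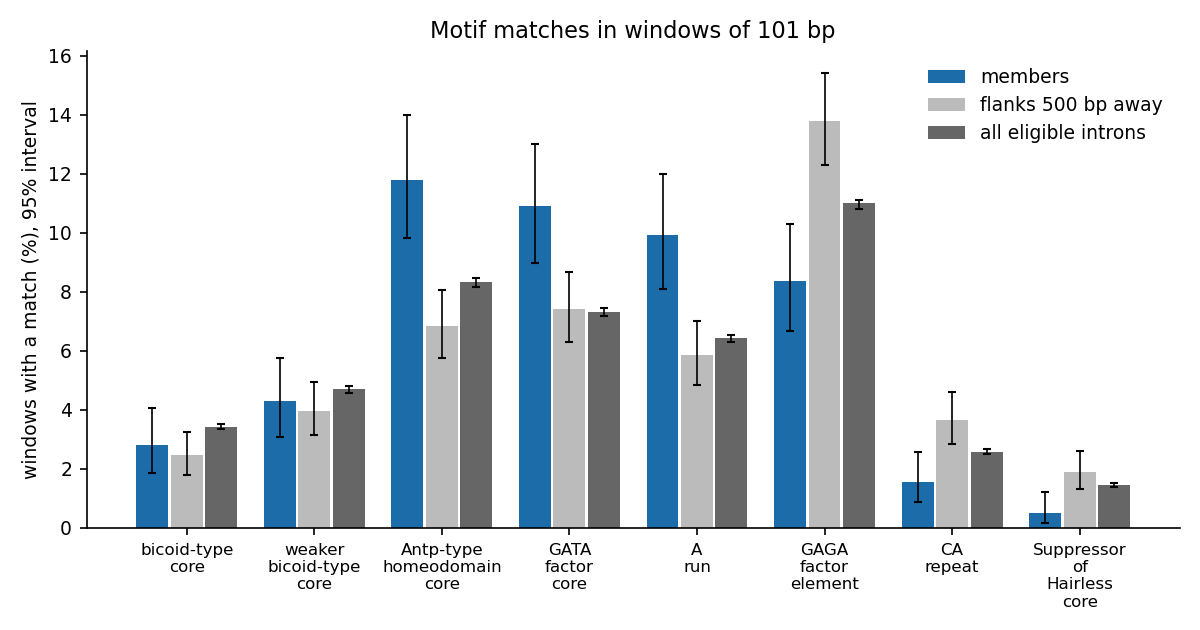
Share of windows (summit and 50 bp on either side) with a match (%) to each of 8 motifs, named by the factor, for the 956 member summits, the flanks 500 bp away and all windows tiled over eligible introns, with exact 95% intervals. The bicoid-type cores are close across the 3 kinds of window, with 2.82%, 2.46% and 3.43% for the main core, while the AT-rich motifs are more frequent and the GAGA factor element less frequent in members.

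Members lay in 620 of the 5613 coding genes with eligible intron sequence (11%). Where a member lay in several genes, the main host was the gene with the nearest start of its own. The 587 main hosts were long, with a median of 20272 bp against 4796 bp for all eligible genes. The share of genes that hosted a member went up with the eligible sequence in the gene. It was 0.82% at up to 1 kb, 33.2% at 5 to 10 kb and 61.7% over 20 kb. Of the 620 hosts, 403 had 1 member and 217 had more, 21 of them 5 or more.

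The gene with most members was shn, a zinc-finger protein of the Dpp pathway that works with Smads, with 11 summits over 30.6 kb of its introns and scores of 67.7 to 514. Its highest summit had 276 in replicate 1 and 233 in replicate 2, and 6 of its 11 members were in both thresholded lists. The phosphatase gene Ptp61F had 9 over 70.6 kb, though 4 of them lie also in ru, a rhomboid protease gene nested within it, and only 3 were in both lists. The gene tou had 8, ush (a FOG-type cofactor of GATA factors) and pnt (the ETS factor of EGF receptor signalling) 7 each. CG9328 had 6 within 11.3 kb, with scores of 58.5 to 808, and sick, RapGAP1, SNF4Agamma (the gamma subunit of AMP-activated kinase) and Egfr had 6 each. Support differed among them: Egfr had a highest score of 137 and 1 member in both lists, while tou had 287 and 6 of 8. In ush and Ptp61F some of the summits lay about 200 bp apart in overlapping peaks, so the number of separate sites is lower than the number of members. Egfr had a lowest score of 20.8, and 35 of the 36 members with a score under 30 overlapped a stronger peak.

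The genes were also read by 18 lists, 17 of regulatory and signalling genes and 1 of ribosomal proteins. Of 379 eligible genes in any list 112 hosted a member (29.6%), against 11% of all eligible genes, and 15 of the 112 stand in more than 1 list. Listed genes carry more eligible intron than the average gene, 3.24 to 11.2 kb per gene in the regulatory lists against 2.76 kb, so density per Mb is the fairer measure, with 64.6 as the value for all introns.

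The Dpp and activin list had the highest density, 235 members per Mb (147 to 356), with 8 of 16 genes hosting 22 members. Of these, 11 were in shn, and without shn the density was 173 (86.6 to 310.3). The receptor gene wit had 369 in replicate 1 and 252 in replicate 2, as given above. The other receptor genes tkv (type I) and put (type II) had best combined scores of 173 and 111, and emc, an inhibitor of basic helix-loop-helix factors, had 213. The EGFR, FGF and Ras list followed with 171 per Mb (119.5 to 236) and 11 of 28 genes. Beside aos, the FGF gene ths had 309 in replicate 1 and 231 in replicate 2, and Src64B and aop, the ETS repressor Yan, had best combined scores of 439 and 382. Without pnt, its gene with most members, that list had 156 (104 to 224), so both densities stayed above 64.6 when the leading gene was left out. The lists were chosen with earlier results of these data known. Overlapping entries, as in tkv and aop, are counted separately in these densities.

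The list of BTB and other zinc-finger regulators had 123 per Mb (81.4 to 177) and 12 of 24 hosts, with Trl, ken, bowl and rib at best combined scores of 1783, 479.9, 470.0 and 378. The trachea and epidermis list had 110.4 (74.5 to 158), led by sr and grh. Without ush, which stands in both lists, the zinc-finger list had 104 (64.7 to 159.7) and the trachea and epidermis list 94.2 (59.7 to 141). Wingless and Hedgehog genes had 109 (63.6 to 175), with the co-receptor arr at 322 in replicate 1 and 224 in replicate 2 and the glypicans dlp and dally at combined scores of 326 and 302. The insulin and TOR, clock and helix-loop-helix, ecdysone, Polycomb and trithorax, and Notch lists ran from 107 to 82.8 per Mb, with intervals that included 64.6. Their leading hosts were REPTOR (480.3), sima (521), ImpL2 (873), Trl (1783) and mam (667), given as combined scores.

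The remaining lists had intervals that included the value for all introns. Mesoderm and muscle genes had 66.2 per Mb (39.9 to 103) with 11 of 47 hosts, led by the guidance ligand sli and by mbc. The muscle factor Mef2 had 4 members with a best score of 131, and twi 2 with 137. Neural genes had 45.4 (29.1 to 67.6) with 15 of 52 hosts, gut, odd-skipped and GATA genes 57.1 (18.5 to 133) with 3 of 22, and other homeobox genes 43.8 (21 to 80.5) with 5 of 34, where zfh1 had 356 in replicate 1 and 226 in replicate 2. In the Hox list Antp, Abd-B and Ubx hosted 6 members (66.9 per Mb), with best combined scores of 178, 172 and 83.7. Of 7 gap and pair-rule genes with eligible introns, cnc held members (14.3%, 0.361 to 57.9, against 11% of all eligible genes). That list had 61.6 per Mb (7.46 to 223). None of the 5 eligible ribosomal protein genes held a member, though those 5 had 0.22 kb of eligible intron each.

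**Figure D5:**
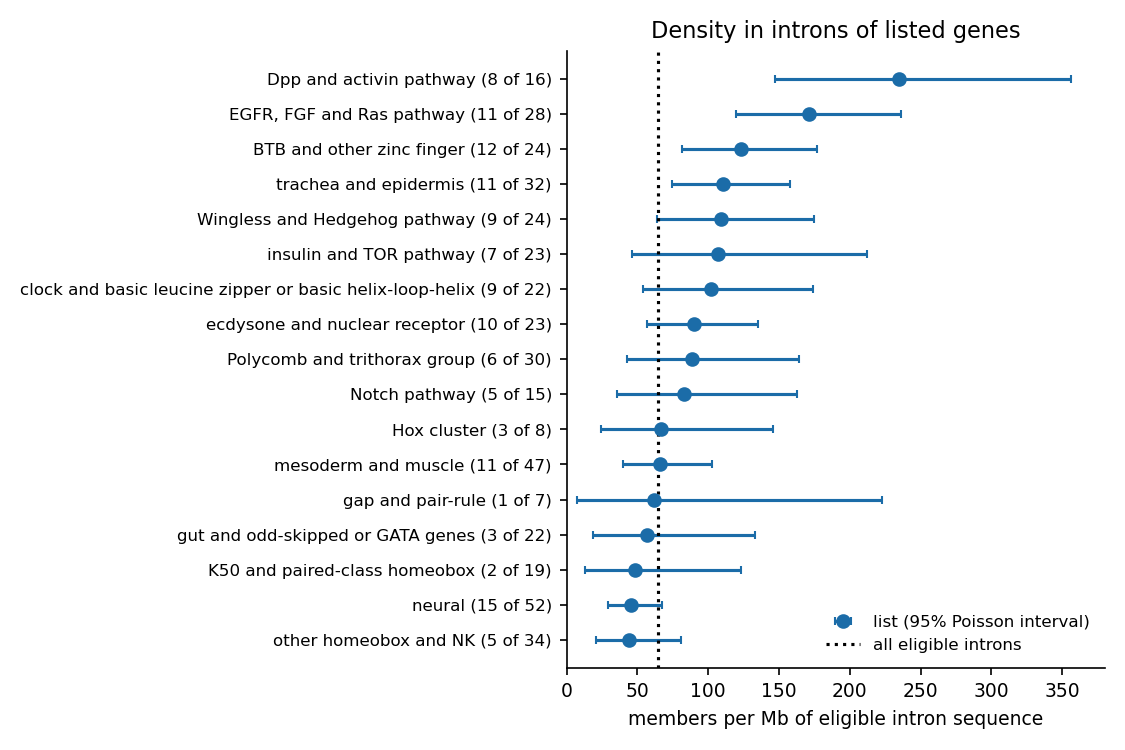
Members per Mb of eligible intron sequence in the genes of each list (horizontal, exact Poisson 95% intervals), with hosting and eligible genes in brackets and a dotted line at 64.6 for all eligible introns. The Dpp and activin list (235) and the EGFR, FGF and Ras list (171) lie farthest to the right, and the neural (45.4) and other homeobox (43.8) lists lie to the left of the line.

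Among bicoid-class and paired-class homeobox genes, Ptx1 and CG9876 hosted members, 2 of 19 eligible genes. That share was 10.5% (1.3 to 33.1), close to the 11% of all eligible genes. The density was 48 per Mb (13.1 to 123), against 64.6 for all introns. Ptx1's introns, on 3R, held 3 members with combined scores of 89.3, 71.4 and 47.3. The first had 35 in replicate 1 and 48.1 in replicate 2, the second 39 and 32.4, and the third 32.6 and 33, and none was in either replicate's thresholded list. Their summit windows had GC contents of 68.3, 54.5 and 60.4%, where 4.92% of all members exceeded 50% and 68.3% was the highest of all 956. The strain carries an insertion labelled as targeting Ptx1, and whether that bears on these values was not tested.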

How the data were processed

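Peaks of the 2 embryo samples were used as the authors deposited them, on dm6, as ranked and IDR-thresholded lists per replicate and for the series. The deposited lists give a strength score, a scaled IDR score and a −log10 q value per peak, and the last broke ties. For the aligner and the peak caller, names were not given in the sources used here, nor versions, and read depth is unknown. Replicate values came from each replicate's own lists, by overlap of at least 1 bp, and an overlapping peak may serve more than 1 member. Positions were set with Ensembl release 115 genes and RefSeq's Release 6 sequence, and all peak and gene ends on the 4 arms lay inside the chromosome lengths of that sequence. Eligible sequence is every base that meets the position rule, and it was tiled in windows as long as those of the summits. Shares have exact Clopper-Pearson and densities exact Poisson intervals (95%), which cover counting only and treat overlapping peaks as separate. No test was run, since there is 1 group. Members, gene lists and motifs were chosen with earlier results of these data known. Named genes are the hosts of the 20 highest members, the 10 hosts with most members and up to 4 hosts per list by score. Genes named otherwise were chosen after their values were seen. In the lists, 98 symbols had no match on these arms. Position and motif functions were tested on simulated data. Tools were matplotlib 3.10.9, pandas 2.3.3, scipy 1.17.1, numpy 2.4.6 and Python 3.11.15. Alternatives covered the peak list, each replicate alone, the IDR limit, gene starts, exons, windows and overlap.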

Additional observations from a re-analysis of the deposited data

Results flagged for a closer look

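The ranked replicate-pair list held 984 peaks that met the position rule with a scaled IDR of at least 830, and 28 of them (2.85%) are absent from the conservative list. They were singled out because they carry signal in data that the comparisons above do not use. The strongest, in ush, had a score of 3263, above the 2806 of the highest member, and lay 1403 bp from a start. The next were trx with 1195 and Kdm2 with 789. On 3R lay 21 of the 28 (75%), against 27.9% of the members. Several of the 21 shared a host, as in trx, Kdm2, Unc-115a, jumu and Tm1, and those in Tm1 overlapped. They are therefore not all separate loci. What removed the 28 peaks was not given in the sources used here.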

How the results depend on the processing

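With each replicate's list alone (lowest and highest), the number of members was 648 and 750, density 43.8 and 50.7 per Mb, the first-intron share 71.9 and 74.1%, the host-start share 74.9 and 75.6%, median GC content 29.7 and 30.7%, TAATCC 2.62 and 3.2%, hosting genes 475 and 498, and support by that replicate 64.4 and 71.2%. For these, 0 and 14.3% of gap and pair-rule genes were hosts. Density was 71.7 per Mb with the other thresholded list and 56.3 at a scaled IDR of 1000, where 7.52% of ranked peaks were kept. Windows reaching 100 bp either side, which hold more sequence, had a median GC content of 33.8% and TAATCC in 5.33%. The stricter first-intron definition gave 46.3%. Replicate support was 51.9% with an overlap of 50% of the member, 52% with summits within 100 bp and 98.4% with ranked lists. Except for these the cause was not tested. Of 54 alternatives for the 10 main results 39 stayed within the interval of the value or 1.5 times the count, as did 89 of 90 for the lists. Leaving out the 49 overlapped members and the stratum by GC content were chosen after seeing the data, and neither moved a result beyond those limits. No paired analysis was possible because there is only 1 group. Unknown read depth limits the members of lower score.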

Other observations

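In 3 members the replicate scores were far apart. The summit in trbl had 257 in replicate 1 and 34.5 in replicate 2, that in JIL-1 had 177 and 39.8, and that in fray had 25.2 and 240.5. Each lay 199 to 207 bp from another conservative summit. In trbl and JIL-1 the neighbouring member had the same replicate 1 score, 257 and 177, so a single replicate 1 peak served both entries.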
